A study of Schizosaccharomyces pombe with 4 samples.

Results

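In the fission yeast Schizosaccharomyces pombe, 205 of 635 annotated antisense features lay beside or across an mRNA on their own strand. They were chosen by position: an antisense feature on chromosome I, II or III was taken when an mRNA feature of the same strand overlapped it, or ended at most 500 bases before its 5′ end. The files listed 7015 features in all, and 430 antisense features did not meet this rule. Read values played no part in the choice. Of the 205, 100 lay on chromosome I, 75 on chromosome II and 30 on chromosome III.

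The series asked what the cleavage and polyadenylation factor (CPF) does in heterochromatin assembly and gene silencing, and measured total RNA by sequencing. The libraries were labelled swd22[delta], ssu72[delta] and clr4[delta], which are genomic deletions, and wild type. All 4 cultures grew in rich medium at 18 °C for 3 days and were kept in mid-log phase, so cold growth is shared by every group. The genotypes had 1 library each, so replicates are lacking for every value below and no p-value is given.

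CPF cuts the new transcript of RNA polymerase II at the 3′ end of a gene and adds its poly(A) tail, after which the polymerase is released. Swd22 is a WD-repeat subunit of CPF, and Ssu72 is its phosphatase for the carboxy-terminal domain of the polymerase. Clr4, the histone H3 lysine 9 methyltransferase, is no CPF subunit and marks heterochromatin. The fission yeast genome is compact, and many genes face each other with their 3′ ends; a transcript that runs on past the end of one gene of such a pair is antisense to the other.

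Position of the features was checked first against that picture. In 119 of the 205 an mRNA ended before the antisense feature began, at a distance of 7 to 492 bases with a median of 208. In a further 47 the mRNA ended inside it and shared 3 to 73 bases with a median of 61. These 166 had an upstream mRNA, 163 different ones in all, and in 156 of the 166 that mRNA and the one the antisense feature lies opposite converged. The remaining 39 overlapped only an mRNA that started inside them or lay within them, so they do not lie downstream of a gene; they are counted with the rest in the totals and given separately by arrangement. Opposite a single mRNA lay 168 of the 205, and 37 lay opposite more than one.

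The 3′ ends of upstream mRNAs are where CPF acts, and those of 5 features with large differences in a CPF deletion are shown here. The bases come from the RefSeq genome ASM294v3, run 5′ to 3′ on the strand of the mRNA, and have the polyadenylation hexamer AATAAA in capitals. The files name no build; of 5006 mRNA features matched to RefSeq by name, 4970 (99.3%) shared a start or an end with it. The first 4 lines end with the last base of the mRNA in the files, and the noc3 line, which shows a hexamer 43 bases before the end, stops earlier.
reg1, upstream of psf3-antisense-1, chrI:526383-526412, plus strand: ttAATAAAatctgattttctgtcacgagca
tfs1, upstream of utp5-antisense-1, chrI:2114913-2114942, minus strand: AATAAAtccaaatggtgttttaaacgtaca
ilv6, upstream of meu17-antisense-1, chrII:2211889-2211918, plus strand: tcatcctttttataaaagtcattagcttgt
dph1, upstream of SPAC26A3.17c-antisense-1, chrI:3371355-3371384, plus strand: ccaaaaactaaattccaaagttccgtccga
noc3, upstream of SPBC887.02-antisense-1, chrII:3543337-3543366, minus strand: caAATAAAacatactatcttggttagaaca

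Searched on the mRNA strand only, AATAAA was present in the last 60 bases of 32 of the 163 upstream mRNAs (19.6%), against 18.9% of all 5124 nuclear mRNA features. The hexamer stood in 10 of 47 mRNAs (21.3%) upstream of features at least 2-fold higher in the ssu72 deletion library than in the wild-type library. The tetramer TGTA was searched on the same strand in the 100 bases past the annotated end. It was present for 63.8% of those 47, for 62.6% of the 163 and for 59.7% of all nuclear mRNAs. Upstream mRNAs thus held either motif about as often as mRNAs in general.

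One stretch shows what lies between a gene end and the antisense feature. The 228 bases between reg1 and psf3-antisense-1, on the plus strand of ASM294v3, overlap no feature of the files, hold no AATAAA and hold 4 TGTA, in capitals.
reg1 to psf3-antisense-1, chrI:526413-526640, plus strand: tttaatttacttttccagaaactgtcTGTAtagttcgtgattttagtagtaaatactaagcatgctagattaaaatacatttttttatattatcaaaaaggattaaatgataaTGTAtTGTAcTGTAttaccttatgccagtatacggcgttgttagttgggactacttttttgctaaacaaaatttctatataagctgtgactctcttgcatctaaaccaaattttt

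The libraries held 19630978 (swd22 deletion), 24005943 (ssu72 deletion), 22839456 (clr4 deletion) and 15282718 reads (wild type) over the features. A further library of 22652578 reads, to which the deposited ratios refer and which the files do not name, gives a second comparison; its strain and growth are not known. The gene ssu72 held 16 reads in the ssu72 deletion library and 478 in wild type, and swd22 held 281 reads in its deletion library and 687 in wild type. The clr4 feature held 1645 reads in the clr4 deletion library and 1158 in wild type. Scaled for depth, its log2 difference in that deletion was -0.07 from wild type, with a counting interval of -0.18 to 0.04. From the unnamed library it was 0.30 (0.19 to 0.40). The clr4 feature was thus not clearly lower in the clr4 deletion library, and its reads do not bear out that label. It extends beyond the coding sequence, and whether its reads lie outside the deleted part was not tested. The library labelled wild type stood apart: swi6, the gene of a heterochromatin protein, held 3601 to 3729 reads in the deletion libraries, 4431 in the unnamed library and 200 in wild type. The marker gene ura4 held 1823 to 3961 reads in the deletion libraries, 1732 in the unnamed library and 6 in wild type. The main counts and medians below are therefore given against the unnamed library too, and, for the CPF deletions, against the clr4 deletion library. Where a value below names wild type alone, it rests on that library.

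The antisense features held few reads. In reads per kilobase and per 1000000 reads of a library, their median level was 5.63 in the swd22 deletion, 7.003 in the ssu72 deletion, 6.19 in the clr4 deletion, 4.57 in wild type and 4.76 in the unnamed library, over 200 features. The other antisense features had medians of 5.32, 5.73, 4.88, 3.96 and 4.64 in the same order, and mRNAs lay between 42.0 and 46.3 in each library. Both classes of antisense feature were of like length, with medians of 1473 and 1423.5 bases. The median number of reads behind one value was 167 in the swd22 deletion, 248 in the ssu72 deletion, 213.5 in the clr4 deletion, 108 in wild type and 148.5 in the unnamed library. The other 5 of the 205, which were adh1-antisense-1, adh1-antisense-2, rem1-antisense-2, SPACUNK4.09-antisense-1 and ctr1-antisense-2, had no ratio in any file. All 5 overlapped another antisense feature of the same strand.

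**Figure D1:**
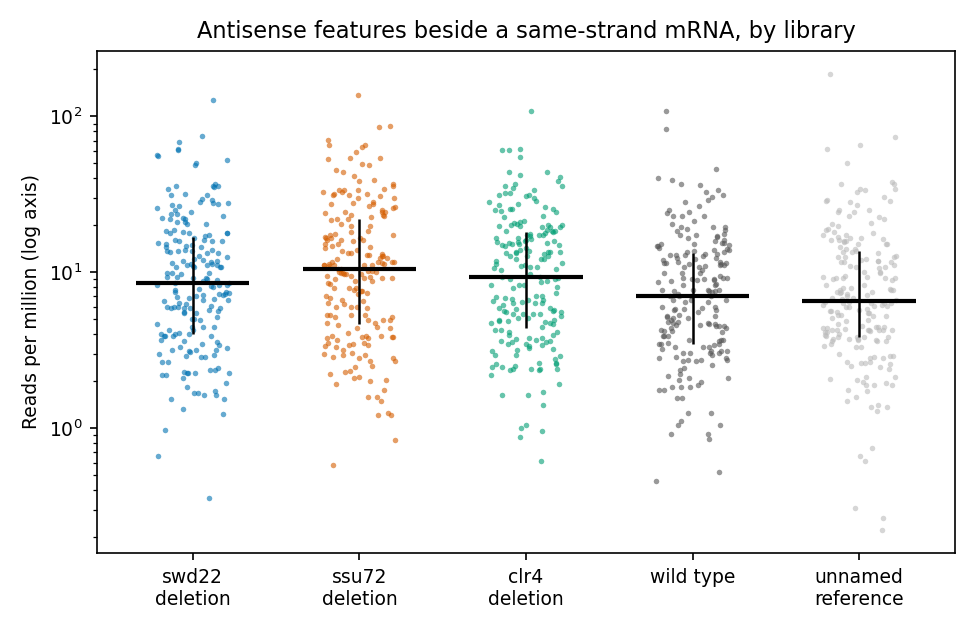
Level of each antisense feature in each library, in reads per 1000000 (RPM) on a log axis; black bars mark the median and thin vertical lines the interquartile range, and features with 0 reads are not drawn. Medians lie higher in the 3 deletion libraries than in wild type and the unnamed library, and the clouds overlap widely.

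As a group the features lay somewhat higher in each deletion library than in wild type, most in the ssu72 deletion. On the log2 scale the median difference from wild type was 0.32 for the swd22 deletion over 198 measured features, 0.45 for the ssu72 deletion over 199 and 0.35 for the clr4 deletion over 199. All features measured in the same comparisons had medians of 0.07, 0.04 and 0.02. A feature was measured where the higher library of the pair held at least 10 reads. In these bulk cultures, fewer cells making an RNA and less of it per cell cannot be told apart.

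At least 2-fold higher in the swd22 deletion than in wild type were 24 of the 198 features, where 9.91% of all measured features were, and 5 were at least 2-fold lower, where 2.91% were. The 24 make 12.1%, which is near the share over all features. In the ssu72 deletion 49 of 199 were higher (24.6%), where 10.6% of all features were, and 5 were lower, where 3.55% were. In the clr4 deletion 29 of 199 were higher (14.6%), where 9.27% of all were, and 3 were lower, where 2.24% were. The ssu72 deletion is the one in which the share of higher features was furthest above that of all features. Most of all features are mRNAs. Among features typed as transcript, neither mRNA nor antisense, 28.8%, 30.5% and 31.4% were higher in the swd22, ssu72 and clr4 deletions. In the same order 11.9%, 9.51% and 9.30% of them were lower. Their medians were 0.47, 0.45 and 0.58, so higher values were not particular to antisense features.

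Antisense features without a same-strand mRNA nearby were set beside these counts, with no test of the difference. Of those measured, 70 of 410 (17.1%) were at least 2-fold higher in the swd22 deletion, 90 of 414 (21.7%) in the ssu72 deletion and 52 of 413 (12.6%) in the clr4 deletion than in wild type. Their median log2 differences were 0.24, 0.41 and 0.25, each below that of the 205. Against the unnamed library 70 of 412 (17%), 81 of 415 (19.5%) and 53 of 414 (12.8%) were higher, with medians of 0.14, 0.29 and 0.06. In the swd22 deletion the share was thus larger without such an mRNA, and in the ssu72 and clr4 deletions it was smaller, against either control.

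Against the unnamed library the picture for ssu72 was much the same. In the ssu72 deletion 52 of 200 features were at least 2-fold higher (26%), where 11.9% of all features were, and 8 were lower, where 3.79% were; the median was 0.50. The swd22 deletion had 27 of 199 higher (13.6%), where 11.3% of all were, and 14 lower, where 4.3% were, with a median of 0.31. The clr4 deletion had 38 of 200 higher (19%), where 11.1% of all were, and 5 lower, where 3.14% were, with a median of 0.34. In the wild-type library itself 14 of 198 were higher than in the unnamed library, where 7.24% of all were, and 12 were lower, where 6.55% were, with a median of -0.01.

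Set against the clr4 deletion library, the CPF deletions differed far less. In the swd22 deletion 4 of 199 features were at least 2-fold higher than in the clr4 deletion, where 2.25% of all features were, and 10 were lower, where 3.32% were; the median was -0.05. In the ssu72 deletion 13 of 199 were higher, where 2.45% of all were, and 6 were lower, where 3.13% were; the median was 0.17, against 0.02 for all features. Between both CPF mutants, 9 of 199 features were higher in the ssu72 deletion than in the swd22 deletion, where 1.29% of all were, and 1 was lower, where 1.31% were. Among the 200 features with reads, the ssu72 deletion library was the highest of the 4 labelled libraries for 89 and wild type for 19. Wild type was the lowest for 111. These orders were not counted over all features, so no general share stands beside them.

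In the ssu72 deletion, arrangement of the mRNA went with the share of features past 2-fold. Where the mRNA ended inside the antisense feature, 18 of 46 were at least 2-fold higher in the ssu72 deletion than in wild type (39.1%), with a median of 0.76. Where it ended before the feature, 29 of 116 were (25%), with a median of 0.42. Among features that only hold the start of an mRNA or a nested one, 2 of 37 were (5.41%), with a median of 0.44. The medians of the last 2 classes were thus close together while their shares past 2-fold were not.

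The order of the classes was the same in the ssu72 deletion against the unnamed library, with 20 of 46, 26 of 117 and 6 of 37 higher. Against the clr4 deletion library it was 6 of 46, 6 of 116 and 1 of 37. Between the CPF mutants, 6 of 46, 2 of 116 and 1 of 37 were higher in the ssu72 deletion than in the swd22 deletion. The swd22 deletion itself had 8 of 46, 14 of 115 and 2 of 37 higher than wild type, and the clr4 deletion 11 of 46, 13 of 116 and 5 of 37. In the same order the medians were 0.28, 0.37 and 0.29 in the swd22 deletion. In the clr4 deletion they were 0.57, 0.34 and 0.27. Distance within 500 bases showed no steady order: in the ssu72 deletion 10 of 46 were higher than in wild type at up to 150 bases, 9 of 27 at more than 150 and up to 300, and 10 of 43 beyond. Against the unnamed library these were 14 of 47, 5 of 27 and 7 of 43, and against the clr4 deletion library 1 of 46, 3 of 27 and 2 of 43.

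Counting of shared bases bears on the features that an mRNA enters. Each of 146 features that lay wholly inside another feature of the same strand had no ratio in the files, against 3.06% of 6822 others. Of the 46 features with an mRNA end inside and with reads, the number of reads was below what even coverage of the mRNA would place in the shared bases for 6 in the swd22 deletion, 3 in the ssu72 deletion, 4 in the clr4 deletion, 11 in wild type and 10 in the unnamed library. In wild type the features of swi3, rct1, meu17, pof14 and SPAC688.12c, all described below, were among these. They held 53, 48, 118, 87 and 115 reads there, where even coverage would place 152, 127, 136, 240 and 127. In the ssu72 deletion each held more than even coverage would place. The other features named below that an mRNA end enters lay above it in wild type. How reads in shared bases were assigned is not stated, and their part in these differences was not tested.

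**Figure D2:**
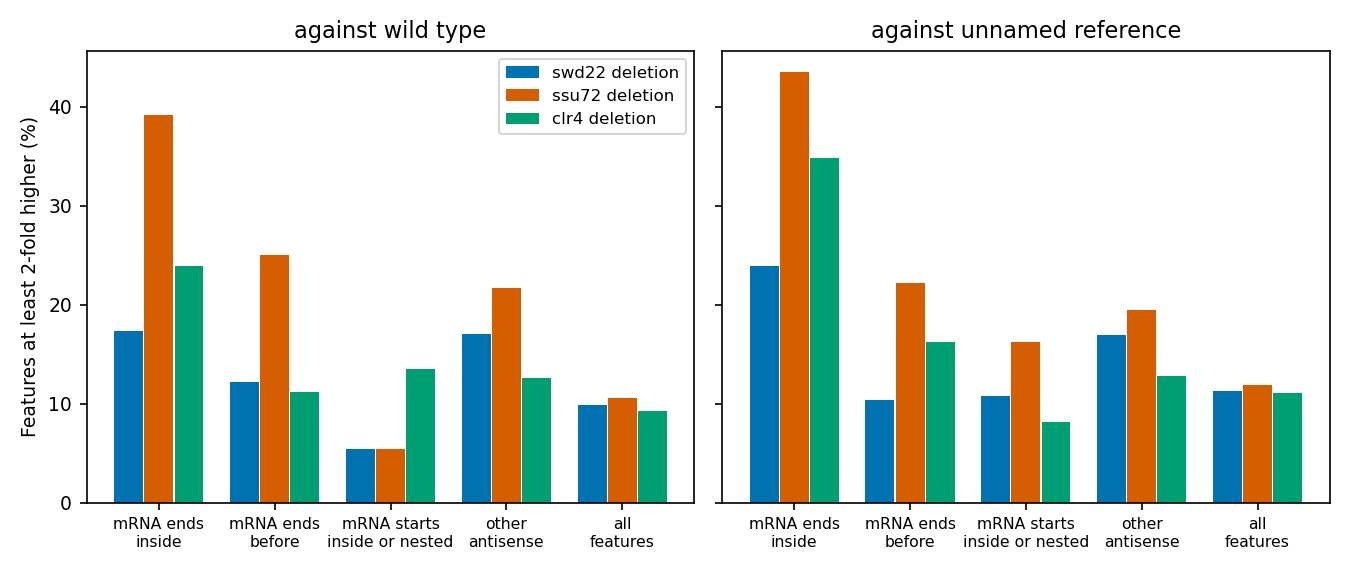
Percentage of measured features at least 2-fold higher in each deletion library than in wild type (left) and than in the unnamed library (right), by where the same-strand mRNA lies, with the other antisense features and all features beside them; 1 library per genotype, so bars have no error. In the ssu72 deletion the bar for an mRNA that ends inside the antisense feature is the tallest in both panels, at 39.1% and 43.5%.

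The upstream mRNAs themselves differed little in the median. Over the 160 or 161 features with an upstream mRNA of at least 10 reads in both libraries, the upstream mRNAs had median log2 differences from wild type of 0.07 in the swd22 deletion, 0.01 in the ssu72 deletion and -0.01 in the clr4 deletion. Pearson's r between the difference of a feature and that of its upstream mRNA was 0.04, -0.02 and 0.09 over these pairs, given as a description since all points share the same libraries. Of the features at least 2-fold higher than wild type, the upstream mRNA was not 2-fold higher for 19 of 22 in the swd22 deletion, 44 of 47 in the ssu72 deletion and 21 of 24 in the clr4 deletion. Over all pairs, whatever the antisense feature did, only 12 of 160, 14 of 161 and 12 of 161 upstream mRNAs were at least 2-fold higher. These counts therefore do not tell higher features from the rest.

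The number of antisense reads per read of the upstream mRNA is a ratio within a library and needs no scaling between libraries. On the log2 scale its median difference from wild type was 0.21 in the swd22 deletion over 160 features, 0.55 in the ssu72 deletion over 161 and 0.32 in the clr4 deletion over 161. The ssu72 deletion again lay highest, and where the mRNA ended inside the feature its median was 0.74 over 46. With the unnamed library in place of wild type, the medians over all arrangements were 0.21 for the swd22 deletion, 0.50 for the ssu72 deletion and 0.28 for the clr4 deletion. With the clr4 deletion library in place of wild type, the medians were -0.11 for the swd22 deletion and 0.14 for the ssu72 deletion.

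**Figure D3:**
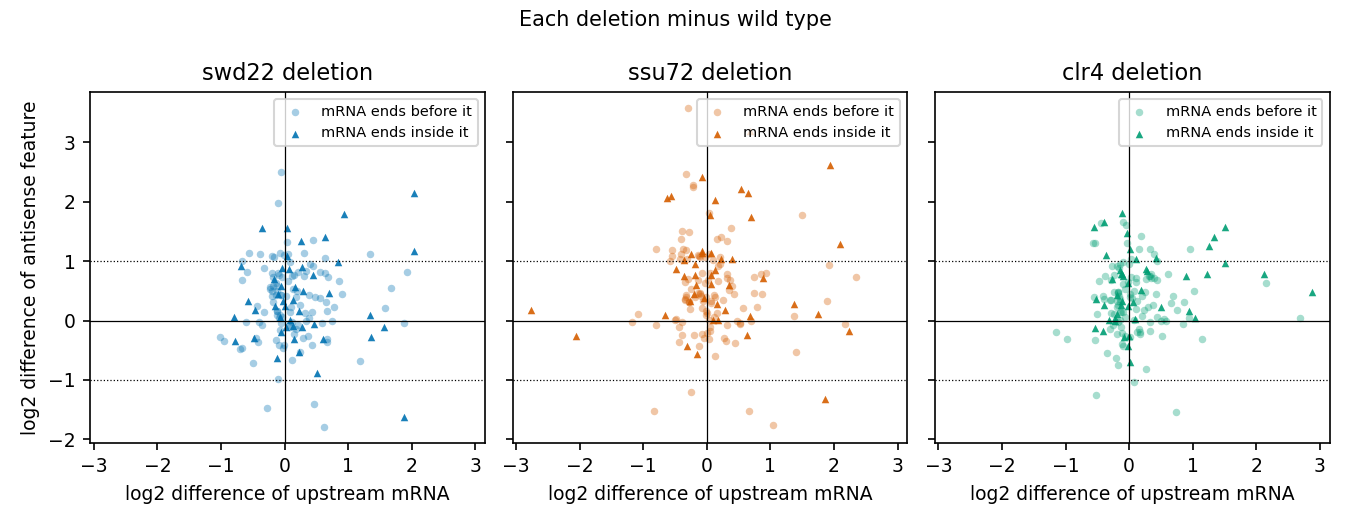
Log2 difference from wild type of each antisense feature (vertical) and of its upstream mRNA (horizontal) in each deletion library; triangles mark features in which the mRNA ends, circles those it ends before, and dotted lines mark 2-fold. The points spread upward around 0 on the horizontal axis, with r between -0.02 and 0.09.

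The mRNAs on the other strand, to which the features are antisense, also differed little in the median. Their median log2 differences from wild type were 0.13 in the swd22 deletion, 0.07 in the ssu72 deletion and 0.02 in the clr4 deletion. Opposite the 49 features that were at least 2-fold higher in the ssu72 deletion, 4 mRNAs were at least 2-fold higher and 0 were lower than in wild type, with a median of 0.07. Over all pairs r was 0.04, -0.13 and -0.04 in the 3 deletions. Over all 199 features compared in the ssu72 deletion, 17 opposite mRNAs were higher and 3 lower, so the counts beside the 49 are near that share. Beside the 24 higher features of the swd22 deletion 1 was higher and 0 lower, where 15 and 4 of 198 were. Beside the 29 of the clr4 deletion 3 were higher and 1 lower, where 12 and 2 of 199 were.

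Single features show how large the differences could be. By the rule for naming them, those with the largest differences in each deletion and those with the most reads per base were taken, and brackets below hold 95% counting intervals of log2 differences.

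The feature with the largest difference was SPBC887.02-antisense-1 (chromosome II, 3541279 to 3542882). It held 57 reads in the swd22 deletion, 1053 in the ssu72 deletion, 159 in the clr4 deletion, 56 in wild type and 85 in the unnamed library. The ssu72 deletion library stood far above the rest, at 3.58 (3.19 to 3.996) above wild type and 2.66 (2.41 to 2.91) above the clr4 deletion, while the swd22 deletion was at -0.34 (-0.89 to 0.22). Its upstream mRNA noc3 encodes a subunit of the Noc2p-Noc3p complex, which takes part in making ribosomes, and ends 440 bases before it. The noc3 mRNA lies wholly within the span of the chloride channel gene SPBC887.02 on the other strand, so the pair is not convergent. Per base, the antisense feature had 2.01% of the reads of noc3 in the swd22 deletion, 34.1% in the ssu72 deletion, 5.01% in the clr4 deletion, 2.31% in wild type and 2.10% in the unnamed library. The level of noc3 itself differed from wild type by -0.30 (-0.36 to -0.24) in the ssu72 deletion.

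In meu17-antisense-1 (chromosome II, 2211869 to 2213695) the order was ssu72 deletion over swd22 deletion over the rest. It held 526 reads in the swd22 deletion, 1699 in the ssu72 deletion, 368 in the clr4 deletion, 118 in wild type and 312 in the unnamed library. Against wild type it was higher by 1.79 (1.504 to 2.10) in the swd22 deletion, 3.20 (2.93 to 3.48) in the ssu72 deletion and 1.06 (0.76 to 1.37) in the clr4 deletion. Against the unnamed library these were 0.96 (0.76 to 1.17), 2.36 (2.19 to 2.54) and 0.23 (0.01 to 0.45). The mRNA of ilv6, the regulatory unit of acetolactate synthase in the synthesis of branched amino acids, ends 50 bases inside it and was itself higher than in wild type, by 0.93 (0.89 to 0.98) in the swd22 deletion and 0.68 (0.64 to 0.73) in the ssu72 deletion. Per read of ilv6 the feature was still higher by 0.86 in the swd22 deletion, 2.51 in the ssu72 deletion and 0.63 in the clr4 deletion. The opposite gene meu17, a glucosidase gene, had a low level of 2.50, 3.92 and 1.66 RPM in the deletions and 1.64 in wild type.

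Another feature was at least 2-fold higher in the ssu72 deletion than in each other library. SPAC26A3.17c-antisense-1 (chromosome I, 3371461 to 3372746) held 143 reads in the swd22 deletion, 478 in the ssu72 deletion, 153 in the clr4 deletion, 64 in wild type and 97 in the unnamed library. The difference from wild type was 2.25 (1.87 to 2.65) in the ssu72 deletion, 0.80 (0.36 to 1.25) in the swd22 deletion and 0.68 (0.25 to 1.12) in the clr4 deletion; from the unnamed library it was 2.22 (1.90 to 2.55) in the ssu72 deletion. The mRNA of dph1, which encodes a protein with a ubiquitin-binding UBA domain, ends 77 bases before it and differed from wild type by -0.23 (-0.28 to -0.17) in the ssu72 deletion. Of the 200 features with reads, only these 3 were at least 2-fold higher in the ssu72 deletion than in every other library. The set was picked after the values were seen, and how many of all features met the same condition was not counted.

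High in both CPF deletions was utp5-antisense-1 (chromosome I, 2112071 to 2114599). It held 1462 reads in the swd22 deletion, 1528 in the ssu72 deletion, 735 in the clr4 deletion, 200 in wild type and 394 in the unnamed library. Against wild type it was higher by 2.51 (2.29 to 2.73), 2.28 (2.07 to 2.50) and 1.30 (1.07 to 1.53) in those deletions, and against the clr4 deletion library by 1.21 (1.08 to 1.34) in the swd22 deletion and 0.98 (0.86 to 1.11) in the ssu72 deletion. Against the unnamed library it was higher by 2.10 (1.94 to 2.27), 1.87 (1.71 to 2.04) and 0.89 (0.71 to 1.07). The upstream mRNA tfs1, of the elongation factor TFIIS, ends 314 bases before it and lay within 0.22 of wild type in each deletion. The opposite mRNA utp5, of a protein associated with the U3 snoRNP, was at -0.52 (-0.59 to -0.45) in the swd22 deletion, -0.38 (-0.44 to -0.31) in the ssu72 deletion and 0.00 (-0.07 to 0.06) in the clr4 deletion.

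The feature psf3-antisense-1 (chromosome I, 526641 to 528541) has the coordinates of a RefSeq long noncoding RNA, snoZ, and 5 small nucleolar RNA features, snoZ3, snoZ4, snoZ5, snoZ7 and snoZ8, lie inside it. None of the 5 had a ratio in any file. The feature held 1193 reads in the swd22 deletion, 2046 in the ssu72 deletion, 767 in the clr4 deletion, 236 in wild type and 687 in the unnamed library. It was higher than wild type by 1.98 (1.77 to 2.18) in the swd22 deletion, 2.46 (2.27 to 2.66) in the ssu72 deletion and 1.12 (0.91 to 1.34) in the clr4 deletion. Against the unnamed library, the ssu72 deletion was still higher by 1.49 (1.37 to 1.62). Both CPF deletions lay above every other library. Small nucleolar RNAs are trimmed out of longer precursors. The mRNA of reg1, a predicted phosphatase subunit gene, ends 229 bases before the feature and differed from wild type by -0.11 (-0.19 to -0.02) in the swd22 deletion and -0.32 (-0.40 to -0.24) in the ssu72 deletion.

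The genes end4, of an endocytic protein related to human huntingtin-interacting protein, and SPAC688.12c face each other, and the antisense feature of each holds the 3′ end of the other gene. SPAC688.12c-antisense-1 (chromosome I, 3138602 to 3139458) held 436 reads in the swd22 deletion, 758 in the ssu72 deletion, 600 in the clr4 deletion, 115 in wild type and 411 in the unnamed library. The feature end4-antisense-1 (chromosome I, 3137359 to 3138684) held 348, 682, 564, 127 and 208 reads in the same order. Both were lowest in wild type, and in both the ssu72 and the clr4 deletion library lay close together. From wild type the first differed by 2.07 (1.78 to 2.36) in the ssu72 deletion and 1.80 (1.51 to 2.10) in the clr4 deletion, and the second by 1.77 (1.498 to 2.06) and 1.57 (1.29 to 1.86). From the unnamed library SPAC688.12c-antisense-1 was not 2-fold different in any deletion, with 0.29 (0.10 to 0.49) in the swd22 deletion, 0.80 (0.63 to 0.98) in the ssu72 deletion and 0.54 (0.35 to 0.72) in the clr4 deletion, while end4-antisense-1 differed by 0.95 (0.70 to 1.21), 1.63 (1.41 to 1.86) and 1.43 (1.198 to 1.67). Against the clr4 deletion library the ssu72 deletion differed by 0.27 (0.11 to 0.42) and 0.20 (0.04 to 0.37).

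The features of swi3, of the replication fork protection complex, and rct1, of an RNA-binding cyclophilin, were highest in the ssu72 deletion too, with fewer reads. Into swi3-antisense-1 (chromosome II, 3090851 to 3091859) runs the end of SPBC30D10.05c, and it held 180 reads in the swd22 deletion, 388 in the ssu72 deletion, 144 in the clr4 deletion, 53 in wild type and 101 in the unnamed library. Its difference in the ssu72 deletion was 2.22 (1.80 to 2.66) from wild type, 1.86 (1.54 to 2.19) from the unnamed library and 1.36 (1.08 to 1.64) from the clr4 deletion. SPBC30D10.05c also had its fewest reads in wild type. Unscaled for depth, its even coverage would place 305, 348 and 272 reads in the 64 shared bases in the swd22, ssu72 and clr4 deletions. Wild type would have 152 and the unnamed library 268. Into rct1-antisense-1 (chromosome II, 2178059 to 2179406) runs SPBC17G9.06c, a predicted gene of siderophore synthesis, and it held 182, 401, 124, 48 and 115 reads. Its difference in the ssu72 deletion was 2.41 (1.98 to 2.87) from wild type, 1.72 (1.42 to 2.03) from the unnamed library and 1.62 (1.33 to 1.92) from the clr4 deletion, while SPBC17G9.06c lay within 0.11 of wild type in each deletion. For both features the ssu72 deletion was highest, the swd22 deletion second and wild type lowest. Even coverage of SPBC17G9.06c would place 168, 189 and 176 reads in the 66 shared bases in the swd22, ssu72 and clr4 deletions. Wild type would have 127 and the unnamed library 161. Both features thus held fewer reads than even coverage would place in the clr4 deletion, wild type and the unnamed library. For swi3-antisense-1 this also held in the swd22 deletion.

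In 9 features with at least 50 reads, both CPF deletions differed 2-fold or more the same way from wild type and the unnamed library. Of these, 8 are named here. How many of all features met the same condition was not counted, so the number has no general share beside it. The features of utp5, psf3 and swi3 were given above. SPAC11D3.18c-antisense-1 and hsp3102-antisense-1, which were lower, follow further on. Also higher was mrps17-antisense-1 (chromosome II, 1166826 to 1167420), with 109 reads in the swd22 deletion, 222 in the ssu72 deletion, 123 in the clr4 deletion, 41 in wild type and 57 in the unnamed library. Its upstream mRNA rib4, of riboflavin synthesis, was higher than wild type too, by 1.502 (1.40 to 1.60) in the ssu72 deletion, and per read of rib4 the feature differed by 0.28. The feature rem1-antisense-1, opposite the meiotic cyclin gene rem1, had few reads, 26 in the swd22 deletion, 56 in the ssu72 deletion, 20 in the clr4 deletion, 8 in wild type and 6 in the unnamed library. SPCC1919.05-antisense-2 (chromosome III, 2215633 to 2217861), which RefSeq lists as the long noncoding RNA lncRNA584, held 440, 587, 444, 152 and 68 reads in the same order. Its clr4 deletion value stood with those of the CPF deletions.

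In pof14-antisense-1 the ssu72 and clr4 deletion libraries were at least 2-fold above wild type, and of these the ssu72 deletion library was also 2-fold above the unnamed library. In this feature (chromosome I, 2245513 to 2247257) 116 reads were found in the swd22 deletion, 588 in the ssu72 deletion, 411 in the clr4 deletion, 87 in wild type and 266 in the unnamed library. The differences from wild type were 0.05 (-0.36 to 0.47) in the swd22 deletion, 2.10 (1.78 to 2.45) in the ssu72 deletion and 1.66 (1.32 to 2.01) in the clr4 deletion. From the unnamed library they were -0.99 (-1.32 to -0.67), 1.06 (0.85 to 1.28) and 0.62 (0.39 to 0.85), so the swd22 deletion lay below that library. Upstream byr3, a zinc-finger gene, was below wild type in each deletion, with differences of -0.79 (-0.84 to -0.75) in the swd22 deletion, -0.56 (-0.60 to -0.52) in the ssu72 deletion and -0.39 (-0.43 to -0.35) in the clr4 deletion. The opposite gene pof14, of an F-box protein, was higher than wild type by 1.13 (0.89 to 1.37), 0.98 (0.75 to 1.22) and 0.78 (0.54 to 1.02).

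SPAC11D3.14c-antisense-1 (chromosome I, 131203 to 135541), opposite a predicted 5-oxoprolinase gene, held 324 reads in the swd22 deletion, 806 in the ssu72 deletion, 1387 in the clr4 deletion, 313 in wild type and 659 in the unnamed library. It was highest in the clr4 deletion, at 1.57 (1.39 to 1.75) above wild type and 1.06 above the unnamed library. Its upstream mRNA hsp3104 lay above wild type there by 1.504 (1.36 to 1.65), so that per read of hsp3104 the difference was 0.06. In SPAC27E2.02-antisense-1 (chromosome I, 4004553 to 4005632) the clr4 deletion, with 410 reads, was likewise above the swd22 deletion with 162, the ssu72 deletion with 279, wild type with 87 and the unnamed library with 118. Its upstream mRNA SPAC27E2.03c differed from wild type by -0.09 (-0.12 to -0.05) in the clr4 deletion.

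Other features among the highest in the clr4 deletion had few reads. SPAC17G8.02-antisense-1 held 79 reads in the swd22 deletion, 92 in the ssu72 deletion, 128 in the clr4 deletion, 28 in wild type and 58 in the unnamed library. SPBC409.16c-antisense-1 held 44, 65 and 75 reads in the deletions, 16 in wild type and 137 in the unnamed library, so that each deletion was above wild type and below the unnamed library. SPAC8E11.08c-antisense-1, which has no upstream mRNA, held 67, 72 and 85 reads in the deletions, 19 in wild type and 60 in the unnamed library. The gene SPAC8E11.08c opposite it, annotated as dubious, was higher than wild type as well, by 2.16 (1.44 to 2.96) in the clr4 deletion.

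**Figure D4:**
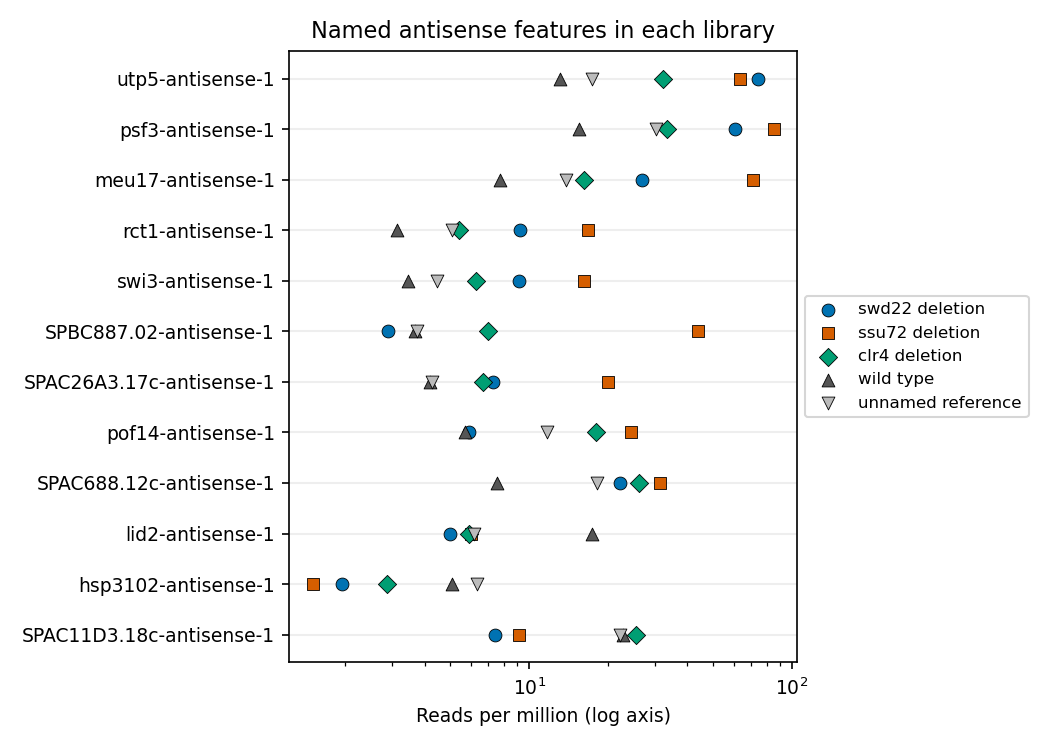
Level of 12 named antisense features in each library, in reads per 1000000 (RPM) on a log axis, with 1 point per library. The ssu72 deletion holds the highest value for most of the upper features, while the lower features include some that are highest in wild type or the unnamed library.

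Few features were lower, and some of these were low only against wild type. In lid2-antisense-1 (chromosome II, 2866328 to 2868277), opposite the gene of the histone demethylase Lid2, 98 reads were found in the swd22 deletion, 144 in the ssu72 deletion, 135 in the clr4 deletion, 264 in wild type and 140 in the unnamed library. Wild type was the odd library: the deletions differed from it by -1.79 (-2.14 to -1.45), -1.53 (-1.83 to -1.23) and -1.55 (-1.86 to -1.24), and from the unnamed library by -0.31 (-0.69 to 0.08), -0.04 (-0.39 to 0.31) and -0.06 (-0.41 to 0.29). SPBC1861.05-antisense-1 behaved alike, with 80, 118 and 108 reads in the deletions, 172 in wild type and 101 in the unnamed library.

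At least 2-fold lower in both CPF deletions than in every other library was SPAC11D3.18c-antisense-1 (chromosome I, 144733 to 146501). It held 146 reads in the swd22 deletion, 220 in the ssu72 deletion, 580 in the clr4 deletion, 349 in wild type and 501 in the unnamed library. The differences from wild type were -1.62 (-1.91 to -1.34) in the swd22 deletion, -1.32 (-1.57 to -1.07) in the ssu72 deletion and 0.15 (-0.04 to 0.35) in the clr4 deletion. Against wild type, both mRNAs beside it went the other way. The upstream transcription factor gene SPAC11D3.17 was higher than wild type by 1.87 (1.67 to 2.08) in the swd22 deletion and 1.86 (1.66 to 2.07) in the ssu72 deletion, and the opposite transporter gene SPAC11D3.18c by 1.38 (1.10 to 1.67) and 1.95 (1.69 to 2.22). For SPAC11D3.17 wild type was the low library. Even coverage of it would place 11.1 reads in the 36 shared bases in the swd22 deletion and 13.5 in the ssu72 deletion. The clr4 deletion would have 6.76, wild type 2.36 and the unnamed library 8.44, unscaled for depth.

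Close by on the same chromosome, hsp3102-antisense-1 (148362 to 149005) held 38 reads in the swd22 deletion, 36 in the ssu72 deletion, 66 in the clr4 deletion, 78 in wild type and 143 in the unnamed library. Its differences from wild type were -1.40 (-1.998 to -0.82), -1.77 (-2.38 to -1.18) and -0.82 (-1.32 to -0.33) in the 3 deletions. The opposite gene hsp3102, of a glyoxalase, was above wild type by 1.57 (1.09 to 2.08), 2.24 (1.78 to 2.73) and 2.87 (2.43 to 3.35). At SPBPB10D8.02c-antisense-1 (chromosome II, 83799 to 85528) the ssu72 deletion alone was low, with 29 reads against 108 in the swd22 deletion, 90 in the clr4 deletion, 53 in wild type and 87 in the unnamed library. Its upstream transporter mRNA SPBPB10D8.01 was also below wild type in the ssu72 deletion, at -0.83 (-1.02 to -0.65). The feature gar1-antisense-1 was lower in the clr4 deletion, with 78 reads there, 117 in the swd22 deletion, 183 in the ssu72 deletion, 107 in wild type and 131 in the unnamed library.

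The features with the most reads per base in wild type stayed within 2-fold of it in each deletion. The first, SPBC3B8.03-antisense-1 (chromosome II, 3390915 to 3393891), contains the small nucleolar RNA feature sno16, which had no ratio, and held 128 RPM in the swd22 deletion, 137 in the ssu72 deletion, 108 in the clr4 deletion, 109 in wild type and 188 in the unnamed library. SPBC24C6.09c-antisense-1, downstream of the septation gene cdc14, had 68.2, 65.9 and 61.6 RPM in the deletions, 83.3 in wild type and 73.3 in the unnamed library. The feature rad2-antisense-1 had 25.01, 25.7 and 35.6 in the deletions, 30.4 in wild type and 7.73 in the unnamed library. SPAC23C11.06c-antisense-1 had 35.8, 59.0 and 55.2 in the deletions, 38.8 in wild type and 34.1 in the unnamed library, and SPAC458.02c-antisense-1, with no upstream mRNA, had 10.9, 16.5, 16.6, 9.95 and 12.7. None of these 5 differed 2-fold between a deletion and wild type. SPAC23C11.06c-antisense-1 was above wild type by 0.60 (0.46 to 0.74) in the ssu72 deletion and 0.51 (0.37 to 0.65) in the clr4 deletion. In the swd22 deletion it was at -0.12 (-0.28 to 0.04). These 5 were picked by their wild-type level, so their differences from wild type are not free of that choice.

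Genes that form and clear 3′ ends were read beside the antisense features. Of 16 genes of cleavage and polyadenylation, 8 of transcription termination and 17 of the nuclear exosome and its cofactors, 0 were at least 2-fold higher than wild type in any deletion. At least 2-fold lower were swd22 in the swd22 deletion, at -1.65 (-1.86 to -1.45), ssu72 in the ssu72 deletion, at -5.55 (-6.37 to -4.84), and 0 genes in the clr4 deletion. The poly(A) polymerase gene pla1 was at -0.19 in the swd22 deletion, -0.33 in the ssu72 deletion and -0.10 in the clr4 deletion. The CPF subunit gene yth1 was at 0.75 (0.55 to 0.96) in the swd22 deletion and 0.97 (0.78 to 1.17) in the ssu72 deletion, and against the unnamed library at 0.46 (0.29 to 0.63) and 0.68 (0.52 to 0.84). In the clr4 deletion iss1, of the CPF subunit related to Fip1, was at -0.67 (-0.75 to -0.59) from wild type and -0.74 (-0.81 to -0.67) from the unnamed library. The median over all 41 genes was -0.17 in the swd22 deletion, -0.23 in the ssu72 deletion and -0.16 in the clr4 deletion against wild type, and -0.11, -0.14 and -0.14 against the unnamed library, where 0 genes were 2-fold higher and the same 2 genes were lower, each in its own deletion.

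Features at the edge of the distance rule varied on both sides of it. Just inside 500 bases lay mug126-antisense-1 at 489 and pmp1-antisense-1 at 492 bases, with log2 differences from wild type in the ssu72 deletion of 1.19 and -0.59. Just outside lay SPBC3E7.04c-antisense-1 at 522 and hsp3101-antisense-1 at 528 bases, with 0.67 and 2.30.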

How the data were processed

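Total RNA of 4 cultures was made into strand-keeping libraries with the ScriptSeq v2 kit and sequenced on a NextSeq 500, per the labels' protocols. The submitters' processing notes list Trimmomatic and STAR and no version of either. The sources used here give neither the genome build and annotation nor the strand setting or the program behind the ratios. Per the file headers, the deposited values are a p-value and a log2 fold change of each feature; from the values, the log2 fold sets a labelled library over a further library that all files share and none names. The deposited p-values rest on reads of single libraries, without biological spread, and served as no test.

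Reads per feature were recovered from the deposited log2 ratio and p-value, since ratios of whole numbers form fixed steps and the p-value follows from ratio and depth under random sampling. Of 7015 features, 6556 were solved from both, 90 from the ratios alone and 7 not at all, none of them antisense; 362 had no ratio, which leaves at most 4 reads. All of the 26414 ratios checked gave whole reads within 0.01. Data for the swd22 deletion against wild type were also simulated, with counting error only and by the same model that the recovery inverts. Of 6507 features 99.969% came back exactly, which the shared model makes likely in advance. A 2-fold difference was passed by 28% of 50 features simulated at 2-fold and 62% of 50 at 0.5-fold. It was also passed by all of both sets of 50 at 4-fold and 0.25-fold, and by 0.391% of 6144 left unchanged. Spread between cultures was not simulated, so the last share is no rate of false calls in these data.

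Differences are log2 ratios of recovered reads on the scale of the deposited ratios, with 0 reads set to 0.5. RPM is reads per 1000000 recovered reads. A feature was measured with at least 10 reads in the higher library. The 95% intervals are exact ones of Clopper and Pearson on the reads of each pair. Counting error is all they cover, and without molecular identifiers a read need not be an independent molecule. With 1 library per genotype there was no test. Features were named by rule: per deletion the 8 highest and 4 lowest with at least 20 reads and an interval excluding 0, up to 8 that were 2-fold different the same way in both CPF deletions against both controls with at least 50 reads, and the 5 with the most reads per base in wild type. One feature that the rule names is not reported here. The features, lists and rules were chosen with earlier results of these data known. The poly(A) polymerase gene pla1 took the place of pap1, a transcription factor gene, in the list of cleavage and polyadenylation genes after values had been seen. Alternatives changed the scaling, the read minimum, the distance, the control library and the handling of overlaps. Python 3.11.15, numpy 2.4.6, pandas 2.3.3, scipy 1.17.1 and matplotlib 3.10.9 were used.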

Additional observations from a re-analysis of the deposited data

Results flagged for a closer look

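A signal outside the labelled libraries was seen for mag2-antisense-1 (chromosome II, 2120212 to 2121384), which lies opposite mag2 and begins 60 bases past the end of rpt6, a proteasome subunit gene. Each of the 4 labelled libraries held 0 reads of it, and the unnamed library held 378. The gene mag2 itself held 0 reads in the labelled libraries and 33 in the unnamed one, and SPBC23G7.13c, a predicted urea transporter gene on the same chromosome (2123087 to 2125438), held 0 and 53. With the floor of 3 reads that a count of 0 allows, the feature counts as lower in each deletion than in the unnamed library. It enters no comparison with wild type.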

How the results depend on the processing

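The choice of control library changed several results. With the clr4 deletion library as control, the number of features at least 2-fold higher was 4 in the swd22 deletion and 13 in the ssu72 deletion, against 24 and 49 with wild type, 10 were lower in the swd22 deletion, the medians were -0.049 and 0.17, and the medians per upstream mRNA read were -0.11 and 0.14. With the unnamed library as control, 14, 8 and 5 features were lower in the swd22, ssu72 and clr4 deletions, against 5, 5 and 3. Leaving out features that overlap a same-strand mRNA, which leaves fewer features, gave 13, 26 and 13 higher, against 24, 49 and 29, and 3 lower in the swd22 deletion. A distance of at most 200 bases, again with fewer features, gave 15 higher in the swd22 deletion and 3, 2 and 1 lower in the swd22, ssu72 and clr4 deletions. Single features changed sign with the control: in the swd22 deletion SPAC688.12c-antisense-1 was at -0.24 and SPAC8E11.08c-antisense-1 at -0.12 against the clr4 deletion; in the ssu72 deletion lid2-antisense-1 was at 0.021 against the clr4 deletion; in the clr4 deletion SPBC1861.05-antisense-1 was at 0.087 and SPBC409.16c-antisense-1 at -0.88 against the unnamed library. The cause was not tested. Setting the median of mRNA features to 0 moved medians by at most 0.03, and all 34 differences of single features stayed within their counting intervals. Setting total reads equal shifted the median over all features by about 0.0003 in the ssu72 deletion and by less in the others. The main scale is thus nearly that of the totals, so this setting is no separate check. A minimum of 30 reads or none moved no count by over 1.5 times. Further alternatives were chosen after seeing the data. Taking any same-strand mRNA as partner gave medians per partner read of 0.21, 0.51 and 0.34 in the swd22, ssu72 and clr4 deletions. With the upstream mRNA these were 0.21, 0.55 and 0.32. Only features with an upstream mRNA gave 22, 47 and 24 higher, against 24, 49 and 29, and lower ones were not counted. No paired analysis was possible because each genotype has 1 library and the labels carry no replicate numbers. Few reads per feature, with a median of 108 in wild type, limit what differences under 2-fold can show.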
